A study of Homo sapiens with 3 samples.

Results

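CDX1, CDX2, HNF4A, HNF4G, GATA4, GATA6, SOX2 and SOX9 are 8 of the 33538 genes counted in a co-culture of Caco-2 and HT29 cells, and all 8 were found by their symbols in each library. They encode transcription factors that set and hold the identity of the gut epithelium, and they were described here by cell line, by cluster of cells and by treatment. Caco-2 is a line from a colorectal adenocarcinoma that differentiates into enterocyte-like cells, and HT29 is a colorectal adenocarcinoma line with a mucus-secreting potential. Both lines were grown together on the membrane of Transwell inserts, seeded at 9 Caco-2 cells for 1 HT29 cell (Caco-2 at passage 8 and HT29 at passage 13).

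The caudal-type homeobox factors CDX1 and CDX2 specify the intestine against the stomach, and CDX2 stays on in the epithelium of the adult intestine. HNF4A and its paralog HNF4G are nuclear receptors that drive the genes of enterocytes, among them those of fat handling and of the brush border. The zinc finger factors GATA4 and GATA6 act in the endoderm, where GATA4 marks the proximal small intestine and GATA6 is found along its whole length and in the colon. SOX2 is a factor of the foregut and of pluripotent cells and is normally off in the intestine, while SOX9 is a Wnt-responsive factor of the crypt base.

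On GRCh38, CDX1 lies on chromosome 5 from 150166778 to 150184558 on the plus strand and CDX2 on chromosome 13 from 27960918 to 27969315 on the minus strand. HNF4A is on chromosome 20 from 44355699 to 44432845, HNF4G on chromosome 8 from 75407914 to 75566834, GATA4 on chromosome 8 from 11676959 to 11760002 and GATA6 on chromosome 18 from 22169589 to 22202528, all on the plus strand. SOX2 is on chromosome 3 from 181711925 to 181714436 and SOX9 on chromosome 17 from 72121020 to 72126416, again on the plus strand. HNF4A and GATA6 overlap antisense genes counted in the same files, HNF4A-AS1 and GATA6-AS1. SOX2 lies inside SOX2-OT on the same strand, which is not among the counted genes. The sources used here do not state the strand setting of the counting, so reads of an overlapping pair may be mixed.

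The study sequenced single-cell RNA from 2 untreated control co-cultures and 1 co-culture given 1 ng/ml lipopolysaccharide (LPS) from Escherichia coli O111:B4 in the apical chamber on day 22 for 24 h, and every co-culture was harvested on day 23. The libraries came from 3 Transwells seeded with cells of the same passages, so p-values measure the spread between such inserts, and the LPS group has a single library. RNA was captured with the 10x Genomics 3′ assay, in which each captured molecule carries a unique molecular identifier (UMI). The libraries held 5811 to 6838 barcodes and 24185467 to 33893707 UMIs, and 4633 to 4989 cells per library were kept, with medians of 5452 UMIs in control 1, 4101 in control 2 and 3573 in LPS. No more than 11 barcodes were found in any pair of libraries, and none had the same counts. Each cell was assigned to a line by genes other than the 8 factors, which gave 11543 Caco-2-line cells, 2584 HT29-line cells and 345 cells left unassigned. HT29-line cells were 14.9% of the assigned cells in control 1, 21.6% in control 2 and 18.2% in LPS. The epithelial marker EPCAM was at 629 to 673 CPM (the standard scaling of a gene's UMIs to a fixed UMI total) in Caco-2-line cells and at 597 to 668 CPM in HT29-line cells, and VIL1, the brush border protein villin, was found in both lines at 62.5 to 164 CPM. Levels are given as CPM after UMIs had been added up across a group's cells within each library. In such sums, fewer cells with the RNA and less RNA in each cell cannot be told apart.

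RefSeq promoters were matched for 4 of the 8 genes. Those of the genes that moved together or in opposite directions within Caco-2 cells are shown here as the 250 bases before the start of transcription, 5′ to 3′ on the strand of the gene (GRCh38.p14). They are the CDX2 promoter (chr13:27969316-27969565, minus strand), the distal HNF4A promoter (chr20:44355449-44355698, plus strand), the HNF4A promoter further downstream (chr20:44400989-44401238, plus strand) and the SOX2 promoter (chr3:181711675-181711924, plus strand). Capitals mark matches to 6 motifs that were searched on both strands, TTTATNG for CDX factors, AGATAA for GATA factors, CAAAGTCCA for HNF4, the HNF1 motif, ACAANG for SOX factors and the TATA box TATAAA.
CDX2: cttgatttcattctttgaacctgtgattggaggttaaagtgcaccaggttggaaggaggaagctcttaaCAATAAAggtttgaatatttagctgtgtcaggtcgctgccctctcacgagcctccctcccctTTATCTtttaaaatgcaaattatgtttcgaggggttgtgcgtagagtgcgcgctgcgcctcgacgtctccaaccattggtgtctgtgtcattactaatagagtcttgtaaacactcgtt
HNF4A distal: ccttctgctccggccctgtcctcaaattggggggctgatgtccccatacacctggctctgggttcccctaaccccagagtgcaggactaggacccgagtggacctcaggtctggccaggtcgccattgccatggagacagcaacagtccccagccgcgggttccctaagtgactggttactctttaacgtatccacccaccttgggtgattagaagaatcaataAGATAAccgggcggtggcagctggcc
HNF4A downstream: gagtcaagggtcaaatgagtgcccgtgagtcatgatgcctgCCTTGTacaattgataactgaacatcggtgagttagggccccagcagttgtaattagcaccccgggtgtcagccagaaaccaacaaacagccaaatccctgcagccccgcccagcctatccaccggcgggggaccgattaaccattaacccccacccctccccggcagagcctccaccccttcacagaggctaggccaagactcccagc
SOX2: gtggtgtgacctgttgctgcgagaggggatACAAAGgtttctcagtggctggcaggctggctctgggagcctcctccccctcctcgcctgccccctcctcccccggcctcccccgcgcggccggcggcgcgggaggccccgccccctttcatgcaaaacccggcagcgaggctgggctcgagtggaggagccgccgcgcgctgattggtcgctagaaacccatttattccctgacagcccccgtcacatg
The CDX2 promoter held a CDX match from base -181 to -175 and a GATA match from -119 to -114. In HNF4A, a GATA match stood at -26 to -21 of the distal promoter and a SOX match at -209 to -204 of the downstream one. The SOX2 promoter held a SOX match from -220 to -215, and the GATA6 promoter, not printed, held none of the motifs. Among 35116 RefSeq promoters of this length, 8.93% held the CDX motif, 9.17% the GATA motif and 30.87% the SOX motif. The SOX matches are therefore of a kind that many promoters hold. The HNF4 and HNF1 motifs were rare, in 0.32% and 0.01% of promoters, and neither was in the windows shown. Only exact matches were searched, and 2 of the 35116 promoters held the HNF1 motif. The lack of a match therefore does not exclude sites that differ from the motif by a few bases.

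The first comparison asked whether the factors differ between the lines of the co-culture. HT29-line cells had more CDX1 and less CDX2, HNF4A, GATA6 and SOX2 than Caco-2-line cells of the same library, whereas SOX9 was at the same order of level in both. Of the 8 factors, 7 could be tested, and 5 of them passed an adjusted p of 0.05 in edgeR's quasi-likelihood test, 1 higher and 4 lower in HT29-line cells. Across all 14021 genes tested, 69.7% passed (33.6% higher and 36% lower), so a call by itself sets no factor apart, and the sizes of the differences are what follows.

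CDX1 was at 0.162 CPM in control 1, 0.106 in control 2 and 0.183 in LPS in Caco-2-line cells, which rests on 4, 2 and 3 UMIs. HT29-line cells had 8.55, 8.42 and 5.79 CPM, from 37, 38 and 21 UMIs. The ranges of the lines did not overlap, and every library showed the difference. Summed over the libraries, the ratio of the levels was 51.3 (95% counting interval 25.9 to 116), and the fitted log2 difference was 5.53 (SE 0.36, adjusted p = 3.11e-09). A CDX1 UMI was found in 4.30%, 3.28% and 2.41% of HT29-line cells, at medians of 5445, 3779 and 3605 UMIs per cell. In Caco-2-line cells the shares were 0.0775%, 0.0531% and 0.0767%, at medians of 5423, 4169 and 3558 UMIs.

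CDX2 showed the opposite pattern. It was at 95.1 CPM in control 1, 99.8 in control 2 and 99.2 in LPS in Caco-2-line cells, against 12.5, 10.2 and 18.8 CPM in HT29-line cells. Every Caco-2-line value was above every HT29-line value, and the fitted log2 difference was -2.89 (SE 0.16, adjusted p = 4.54e-10), a 7.43-fold lower level in HT29-line cells. With each cell thinned to 2000 UMIs, 17.2%, 18.2% and 17.8% of Caco-2-line cells held a CDX2 UMI, compared with 1.93%, 1.27% and 3.6% of HT29-line cells. The line with the higher CDX1 was thus the one with the lower CDX2.

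HNF4A was at 138 CPM in control 1, 109.8 in control 2 and 145 in LPS in Caco-2-line cells and at 32.4, 31.0 and 37.8 CPM in HT29-line cells. The groups did not overlap. HNF4A differed by -2.0 on the log2 scale (SE 0.13, adjusted p = 3.93e-09), which is 4.01-fold lower in HT29-line cells, and control 2 had the lowest value in both lines. At 2000 UMIs per cell, its UMI was found in 23.4%, 18.9% and 24.4% of Caco-2-line cells and in 5.48%, 4.96% and 6.66% of HT29-line cells. HNF4G, the paralog, was scarce in both lines, with 4.93, 4.68 and 2.93 CPM in Caco-2-line cells and 4.85, 6.20 and 6.34 CPM in HT29-line cells. Its groups overlapped, and its log2 difference of 0.40 (SE 0.26, adjusted p = 0.183) missed the threshold. Without control 1 the difference was 0.66 (adjusted p = 0.0496). The antisense gene HNF4A-AS1 had 1.33 to 1.53 CPM in Caco-2-line cells and 0 UMIs in HT29-line cells, where the floor of 3 counts stood at 0.694, 0.665 and 0.828 CPM in the 3 libraries.

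GATA6 was at 53.8 CPM in control 1, 55.2 in control 2 and 55.3 in LPS in Caco-2-line cells and at 15.3, 21.7 and 22.3 CPM in HT29-line cells. These groups did not overlap either, and the log2 difference was -1.52 (SE 0.13, adjusted p = 9.61e-08), a 2.87-fold lower level in HT29-line cells. GATA6-AS1, its antisense neighbour, was also lower there, by -1.92 on the log2 scale (SE 0.20, adjusted p = 6.10e-07). GATA4 was near the limit of detection, with 14, 15 and 12 UMIs in all Caco-2-line cells and 0, 2 and 0 in HT29-line cells. It did not pass the filter on low counts. The ratio of HT29-line to Caco-2-line levels over the libraries was 0.234 (95% counting interval 0.0275 to 0.903).

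SOX2 was at 5.66 CPM in control 1, 6.65 in control 2 and 8.56 in LPS in Caco-2-line cells, from 140, 125 and 140 UMIs. HT29-line cells had 1.16, 0.443 and 1.1 CPM, from 5, 2 and 4 UMIs, and no library broke the order. The log2 difference was -2.99 (SE 0.35, adjusted p = 1.79e-06), a 7.94-fold lower level in HT29-line cells. SOX9 was at 80.0, 66.9 and 81.8 CPM in Caco-2-line cells and at 80.9, 74.7 and 86.6 CPM in HT29-line cells. Its groups overlapped and its log2 difference was 0.04 (SE 0.11, adjusted p = 0.791), a value near 0 whose sign changed with the processing.

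**Figure D1:**
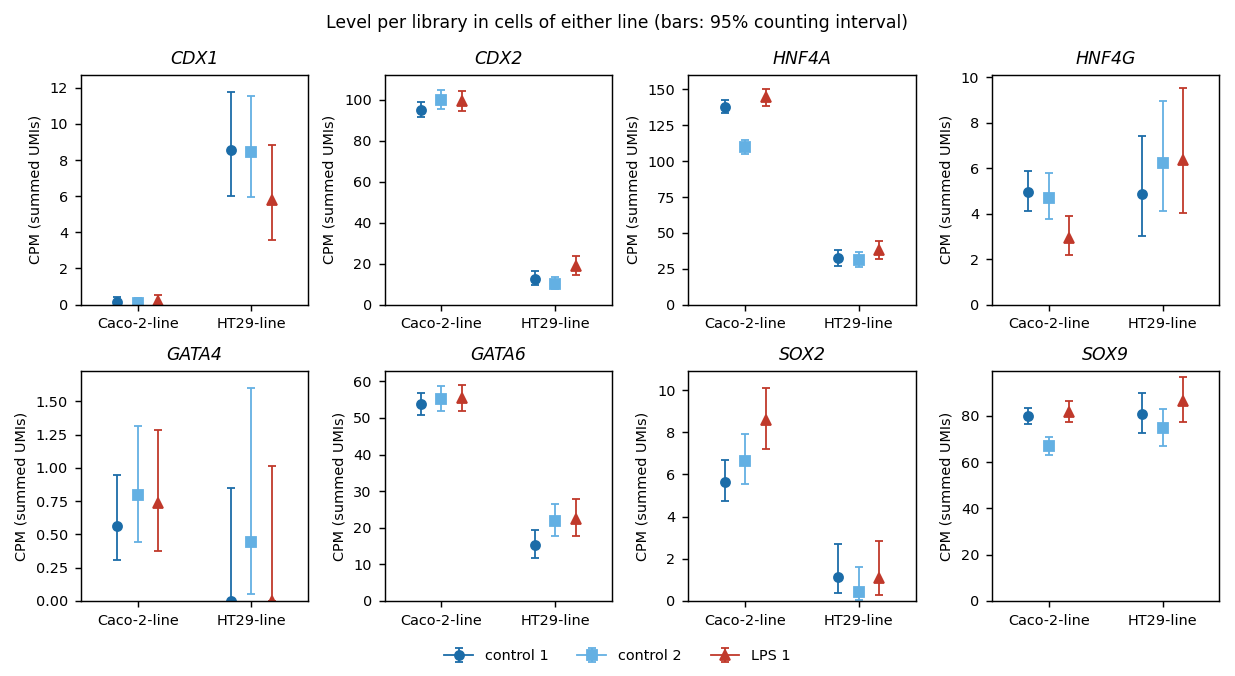
Level of each factor (CPM of summed UMIs, linear axes that start at 0) in Caco-2-line and HT29-line cells. Each point is 1 library and each bar its exact 95% Poisson interval, which covers counting error only. CDX1 is higher in HT29-line cells in all 3 libraries, CDX2, HNF4A, GATA6 and SOX2 are higher in Caco-2-line cells, and SOX9 and HNF4G overlap.

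HT29-line cells held UMIs of genes that belong to Caco-2 cells, and their amount moved with the line score, the log ratio of UMIs on the HT29 genes to UMIs on the Caco-2 genes. The HT29-line cells of each library were therefore split at the median of that score, a choice made after the data were seen, into an upper group of 338, 518 and 437 cells and a lower group of 337, 518 and 436 cells. The Caco-2 genes are the denominator of the score, so less Caco-2 RNA in the upper group is in part fixed by the split. Only differences among genes are read from it. As a yardstick, 11 enterocyte genes outside the lists that set the score were used. They were at 1.44%, 2.68% and 1.93% of their Caco-2-line level in the upper group and at 15.7%, 20.5% and 19.6% in the lower group. For 5 genes of the fetal liver, which Caco-2 cells express, the values were 6.75%, 7.09% and 5.64% against 22.5%, 23.3% and 21.6%.

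CDX2 moved like the enterocyte genes. It was at 2.73%, 2.40% and 1.87% of its Caco-2-line level in the upper group, from 5, 5 and 3 UMIs, and at 21.5%, 17% and 32.6% in the lower group. SOX2 had 0 UMIs in the upper group of every library, where the floor of 3 counts stood at 1.56, 1.44 and 1.86 CPM, and 5, 2 and 4 UMIs in the lower group. HNF4A was less divided, at 16.2%, 21.4% and 20.1% of its Caco-2-line level in the upper group and at 29.3%, 34.2% and 31.0% in the lower group. For GATA6 the upper group was at 19.3%, 38.2% and 29.1% and the lower group at 35.7%, 40.4% and 49.4%. Thus HNF4A and GATA6 stayed above the yardstick genes in the cells with the strongest HT29 signal, and CDX2 did not. SOX9 was at 91.6% to 110.1% of its Caco-2-line level in the upper group and at 99.6% to 117% in the lower group. CDX1 was at 6.22, 9.57 and 4.96 CPM in the upper group and at 10.4, 7.43 and 6.47 CPM in the lower group, and neither group was the higher in all libraries. What share of the Caco-2 genes in HT29-line cells came from free RNA, mixed droplets or the cells themselves was not tested.

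**Figure D2:**
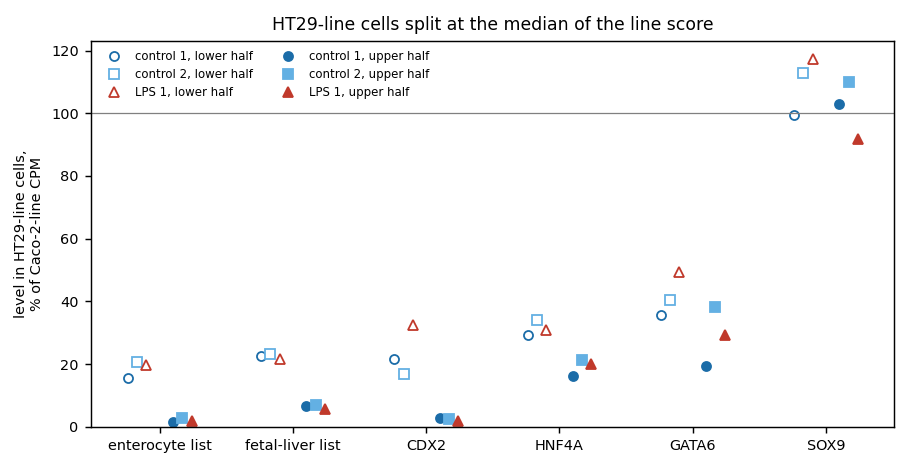
Level in HT29-line cells as a percentage of the Caco-2-line level of the same library (linear axis, line at 100%), with open symbols for HT29-line cells below the median of the line score and filled symbols for those above it. Each symbol is 1 library, and the yardstick lists hold 11 enterocyte and 5 fetal-liver genes. CDX2 drops to the level of the enterocyte genes in the upper cells, whereas HNF4A stays at 16.2% to 21.4% and SOX9 near 100%.

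Other genes of the same network were counted from fixed lists, without the genes that set the line score. Of 20 genes that CDX2 or HNF4A are known to regulate in enterocytes and that could be tested, 20 were lower and 0 higher in HT29-line cells, with a median log2 difference of -3.01 against -0.05 over all genes. Removing the genes of the line score had left 21 of the 29 genes on this list. TM4SF4, also listed, was a leading gene of the undifferentiated HT29 cluster described below and is not among those counted. The count of 0 higher therefore does not cover the whole list. MTTP, which loads lipid onto apolipoprotein B, was lower by -3.83 on the log2 scale (SE 0.15, adjusted p = 1.48e-11), and ISX, a homeobox repressor of vitamin A uptake, by -3.83 (SE 0.36, adjusted p = 1.68e-07). Lactase (LCT) had 3.31 to 4.26 CPM in Caco-2-line cells and 0 UMIs in HT29-line cells. Of 20 other gut transcription factors tested, 6 were higher and 11 lower in HT29-line cells. SPDEF and ATOH1, factors of the secretory lineage, were higher by 6.21 (SE 0.19, adjusted p = 9.36e-13) and 2.44 (SE 0.49, adjusted p = 0.000415), and KLF4 by 0.93 (SE 0.12, adjusted p = 7.70e-06). MAF, a factor of enterocyte maturation, was lower by -3.45 (SE 0.22, adjusted p = 3.11e-09) and NR5A2, a nuclear receptor, by -3.35 (SE 0.27, adjusted p = 2.89e-08).

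Genes of the crypt base that SOX9 accompanies did not move as one group between the lines, 3 of 12 tested being higher and 8 lower in HT29-line cells. AXIN2, a direct target of Wnt signalling, was higher by 3.25 (SE 0.15, adjusted p = 5.39e-11) and the ephrin receptor EPHB3 by 2.29 (SE 0.26, adjusted p = 1.32e-06). LGR5, the stem cell receptor for R-spondin, was lower by -3.47 (SE 0.50, adjusted p = 1.71e-05) and TNFRSF19 by -3.10 (SE 0.26, adjusted p = 6.30e-08). SOX9, with 66.9 to 86.6 CPM in all 6 sums, thus stood beside crypt genes that differed in either direction. Of 6 genes of the foregut and stomach tested beside SOX2, 2 were higher and 3 lower in HT29-line cells. The gastric annexin ANXA10 was higher by 7.34 (SE 0.42, adjusted p = 7.84e-10) and CTSE by 3.37. PGC (-2.54), TFF2 (-2.04) and TFF1 (-1.46) were lower. Of 3 tested genes of pluripotent cells, POU5F1 was higher by 4.19 (SE 0.58, adjusted p = 1.15e-05), from 0.0532 to 0.122 CPM in Caco-2-line and 1.1 to 2.44 CPM in HT29-line cells, while LIN28B and SALL4 were lower by -3.39 and -1.96. Among 10 tested relatives of the factors, 1 was higher and 5 lower. NR2F1 was higher by 0.60 and GATA3 was lower by -2.67, and SOX8 was found at 1.58 to 2.38 CPM in Caco-2-line cells and at 0 UMIs in HT29-line cells.

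Levels by cluster were then compared. Integration and clustering, with the 8 factors left out of the features, gave 13 clusters. Of these, 8 could be named from fixed markers as enterocyte-like (ECLC, 2046 cells), transit-amplifying-like (TALC, 1493 cells), intestinal stem cell-like (ISCLC, 553 cells), LYZ+ enterocyte-like (LYZ+ ECLC, 301 cells), goblet-like (GCLC, 222 cells), enteroendocrine-like (EECLC, 197 cells), undifferentiated HT29 (U-HT29, 2329 cells) and fetal-gene-expressing cells (FGEC, 71 cells). The other 5 stayed unnamed and are called by their leading genes, S100A9 and CCL20 (3124 cells), DKK1 and PLA2G2A (2922 cells), GNRH2 and ZG16 (651 cells) and ITGA5 (510 cells), with the last of 53 cells left aside. In ISCLC the leading genes were ALB and AFP, products of the liver, and in GCLC they included the hormone genes SST and GCG beside MUC2. Of the marker lists, that of ISCLC fitted the DKK1 and PLA2G2A cluster best, with 7 markers raised against 6 in the cluster named ISCLC. It stayed unnamed because markers of TALC were also among its leading genes. HT29-line cells made up 98.6% of U-HT29 and 90.1% of GCLC. The ITGA5 cluster was shallow, its cells having 3141 UMIs at the median, and in LYZ+ ECLC 55.5% of the cells had no clear line. Levels over clusters are descriptions, and neighbours in an order were said not to differ where their ranges over the libraries overlapped.

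CDX2 was at 193, 131 and 151 CPM in the ITGA5 cluster and at 136, 160 and 170 CPM in ECLC, which did not differ. ECLC lay above the GNRH2 cluster (101, 114 and 104 CPM) without overlap. TALC had 74.3, 72.7 and 68.6 CPM and the DKK1 cluster 67.0, 73.9 and 68.3 CPM, again not different, and U-HT29 was last with 12.7, 6.77 and 17.7 CPM. CDX2 in TALC and in the DKK1 cluster was therefore below that in ECLC in every library.

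HNF4A followed nearly the same order. The ITGA5 cluster had 357, 242 and 338 CPM and ECLC 204, 186 and 237 CPM, with no overlap between them or between ECLC and the GNRH2 cluster. TALC had 108, 79.9 and 101 CPM, the DKK1 cluster 87.7, 68.5 and 95.1 CPM, and U-HT29 34.5, 25.8 and 36.5 CPM. Over all 13 clusters, the small unnamed one included, Pearson r of log2(CPM + 1) of the mean levels was 0.947 for CDX2 and HNF4A. For CDX1 and CDX2 it was -0.857, where 91 of the 109 CDX1 UMIs of all cells were in U-HT29. U-HT29 and GCLC, made up mostly of HT29-line cells, are among the points, so these r also hold the difference between the lines. The points share libraries and depth. The small FGEC cluster averaged 38.4 CPM of HNF4A and 30.9 CPM of CDX2. Its libraries ranged from 10.4 to 79.7 CPM and from 0 to 71.9 CPM, and its LPS library held 8 cells. Its place among the clusters is therefore not settled. HNF4G was low everywhere, between 0 and 17.7 CPM, and no 2 neighbours in its order differed.

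GATA6 had another order. It was highest in the ITGA5 cluster (95.3, 91.3 and 70.2 CPM) and the DKK1 cluster (78.4, 78.0 and 77.8 CPM), which did not differ. The DKK1 cluster lay above TALC (58.3, 65.2 and 64.8 CPM), and TALC above ECLC (36.3, 40.4 and 47.8 CPM), both without overlap. GATA4, with 45 UMIs in all 14472 cells, had 15 of them in the DKK1 cluster and 11 in the S100A9 cluster, and its ranges overlapped throughout.

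SOX2 was at 17.3, 17.2 and 21.3 CPM in the DKK1 cluster, its highest mean level. EECLC came next with 15.9, 11.4 and 0 CPM, but from 7 UMIs in 197 cells, of which LPS held 38. The ranges did not overlap, yet so few UMIs do not settle a difference. TALC had 5.73, 6.58 and 8.01 CPM, ECLC 0, 0.684 and 1.53 CPM, and U-HT29 1.49, 0.501 and 1.18 CPM. In the DKK1 cluster 8.01% of cells held a SOX2 UMI (median depth 4376.5 UMIs), compared with 0.429% of U-HT29 cells (median depth 4132 UMIs). The DKK1 cluster held 278 of the 424 SOX2 UMIs of the kept cells. SOX2 and DKK1 are both among the genes that the study chose for TALC on these control libraries, so this is not independent evidence. SOX9 was highest in the ITGA5 cluster (186, 143 and 145 CPM), above ISCLC (104, 83.9 and 89.6 CPM) without overlap. TALC had 78.5, 76.8 and 83.6 CPM of SOX9, U-HT29 80.0, 78.0 and 87.7 CPM and ECLC 50.2, 39.7 and 54.7 CPM. CDX1 was at 9.19, 8.27 and 6.18 CPM in U-HT29 and at 3.04, 12.4 and 3.53 CPM in GCLC, with 0 UMIs in 6 of the clusters, ECLC, ISCLC and EECLC among them. The 71 FGEC had the highest mean CDX1 level, with 10.4, 7.19 and 26.6 CPM from 2, 2 and 1 UMIs, although 1.41% of them were HT29-line cells. Their range overlapped that of U-HT29.

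**Figure D3:**
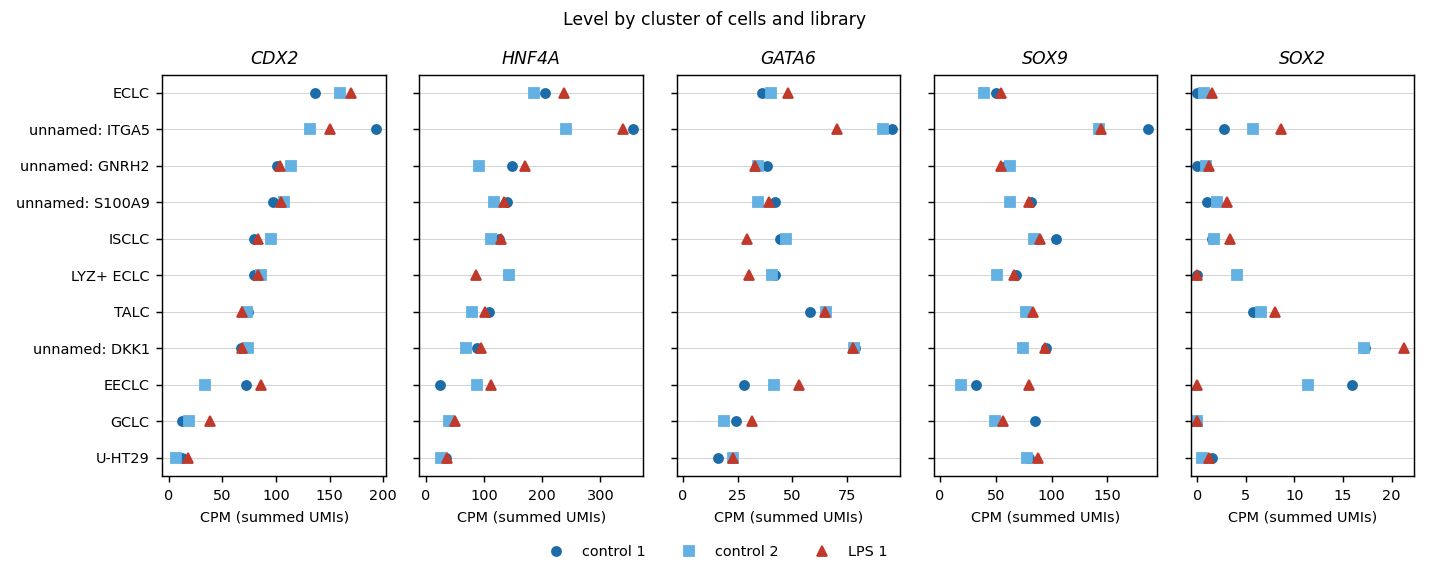
Level (CPM of summed UMIs, linear axes) of CDX2, HNF4A, GATA6, SOX9 and SOX2 in 11 named and unnamed clusters. They are ordered by mean CDX2 level, except that ECLC (155 CPM) is placed before the ITGA5 cluster (158 CPM). Each symbol is 1 library, and the clusters of 53 and 71 cells are left out. CDX2 and HNF4A are high in ECLC and low in U-HT29, while SOX2 has its highest mean in the cluster led by DKK1. In EECLC, SOX2 rests on 7 UMIs.

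The genes most like each factor were named by Pearson r of log2(CPM + 1) over the 13 clusters among 12179 genes with at least 10 CPM in 1 cluster. These r were picked as the highest of many genes over few points, so high values can arise without any shared regulation. They also hold the difference between the lines, and they are descriptions with no test. For CDX2 they were AGT (0.979), VTN (0.965), MST1 (0.962), ID2 (0.959) and AMN (0.955), and for HNF4A they were MST1 (0.986), APOB (0.966), MYO15B (0.964), SLC19A3 (0.959) and NPTXR (0.958). MST1 was thus on both lists. CDX1 was followed by LINC00346 (0.975), TMC5 (0.961), FHL2 (0.959), NUP62CL (0.956) and CD47 (0.952). This list rests on 109 CDX1 UMIs in all cells, 91 of them in U-HT29. SOX2 was most like LGR5 (0.928), ADAM23 (0.905), SRPK1 (0.902) and MCU (0.886), GATA6 most like ATP5F1A (0.955), ALKBH8 (0.954), TSEN54 (0.951), CUL2 (0.949) and RHOBTB2 (0.948), and SOX9 most like PKP4 (0.915), PRPF40B (0.882), SOWAHC (0.870), LTBR (0.861) and PDS5A (0.847). The lists of HNF4G, led by C10orf88 (0.929), RAPGEF5 (0.928), ABTB1 (0.925), EPCAM (0.923) and C1QTNF12 (0.918), and of GATA4, led by MRPL48 (0.871), ORM2 (0.858), SNHG25 (0.853), ESD (0.850) and AMBP (0.849), rest on few UMIs of the factor.

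Within Caco-2-line cells, the factors were then followed along 4 lists of other genes. In each library, the 967, 940 and 977 cells with the highest share of UMIs on a list were compared with the 1934, 1881 and 1955 cells with the lowest share, and the summed counts were tested with edgeR. CDX2 and HNF4A were higher in cells rich in enterocyte genes and in fetal-liver genes, and lower in cells rich in proliferation genes and in DKK1 and ANKRD1. SOX2 moved in the opposite direction on all 4 lists. The lists moved together, so these are not 4 separate results. In the enterocyte-rich cells, all 20 proliferation genes and all 7 genes of the DKK1 list were lower, and all 8 fetal-liver genes were higher. SOX2 is on the list of genes that the study chose for TALC on these control libraries, as are DKK1 and ANKRD1, so its direction on the proliferation and DKK1 lists is not independent evidence. In the fetal-liver-rich cells, 6 of the 7 genes of the DKK1 list were lower. The direction of SOX2 on the enterocyte and fetal-liver lists is therefore not independent of that choice either. Fitted changes are scaled by TMM, whereas CPM values are on plain totals. With plain totals in the fit, the median gene shifted by -0.26 on the enterocyte list, 0.11 on the proliferation list, -0.03 on the fetal-liver list and 0.17 on the DKK1 list.

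**Figure D4:**
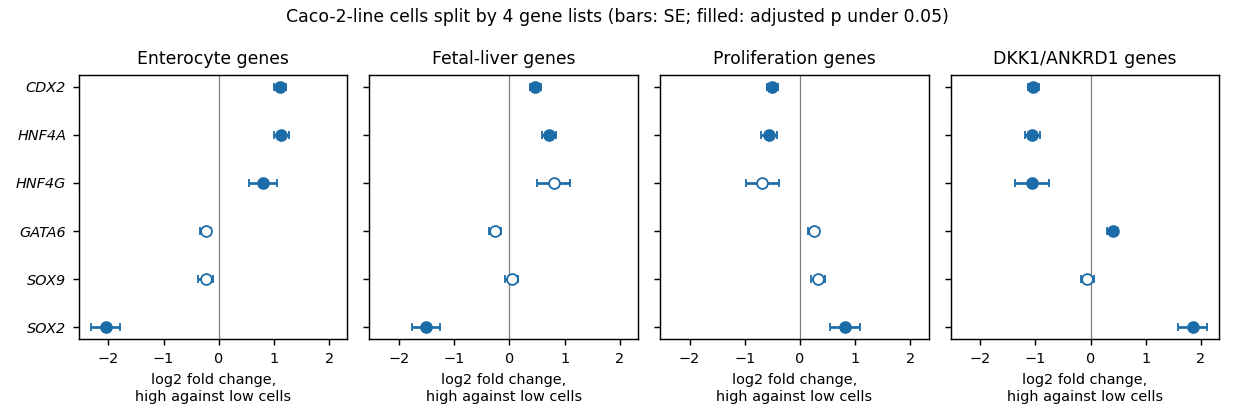
Fitted log2 change (TMM-scaled, linear axes) of 6 factors between Caco-2-line cells high and low in each of 4 gene lists, with the standard error as bars, from 3 libraries. Filled points passed an adjusted p of 0.05. CDX2 and HNF4A lie on the side opposite to SOX2 in each panel. CDX1 and GATA4 could not be tested.

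The enterocyte list holds 13 genes of absorptive cells such as APOA4, FABP2 and ANPEP. Of the 6 factors tested, 3 were higher and 1 lower in the cells rich in these genes, where 40.1% of all 12849 genes tested passed (20.9% higher and 19.2% lower). CDX2 went from 77.2, 79.1 and 76.2 CPM in the low cells of control 1, control 2 and LPS to 133, 142 and 149 CPM in the high cells, and HNF4A from 107, 81.5 and 113 to 183, 162 and 213 CPM. The high cells were above the low cells in every library. The log2 change was 1.11 for CDX2 (SE 0.10, adjusted p = 1.31e-06) and 1.13 for HNF4A (SE 0.13, adjusted p = 1.36e-05). HNF4G had a log2 change of 0.80 (SE 0.26, adjusted p = 0.0245), which missed the threshold without any 1 of the libraries (adjusted p = 0.0893 without LPS, 0.0942 without control 1 and 0.0702 without control 2), with DESeq2 (0.0590), with no doublets removed (0.0561), with plain totals (0.0941) and with cells thinned to 2000 UMIs (0.386). SOX2 went from 8.67, 10.5 and 13.1 CPM down to 1.89, 1.61 and 3.06 CPM, a log2 change of -2.05 (SE 0.26, adjusted p = 2.96e-05).

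GATA6 and SOX9 were near the threshold along the enterocyte list. GATA6 was at 59.0, 61.0 and 64.7 CPM in the low and 41.9, 47.5 and 42.1 CPM in the high cells, and SOX9 at 86.0, 70.0 and 86.5 against 62.0, 48.4 and 62.5 CPM. Both were lower in the high cells of each library on this scale. The fitted log2 change was -0.24 for GATA6 (SE 0.11, adjusted p = 0.0915) and -0.24 for SOX9 (SE 0.13, adjusted p = 0.160). With the library as a block the adjusted p was 0.0104 for GATA6 and 0.00468 for SOX9, and with plain totals the changes were -0.49 (adjusted p = 0.00214) and -0.49 (adjusted p = 0.00555). In thinned cells SOX9 passed as well (adjusted p = 0.0377). The split of all called genes moved with that scaling too, from 2685 higher and 2471 lower to 1549 higher and 4496 lower on this list. It went from 2523 and 2385 to 3320 and 1612 on the proliferation list and from 2275 and 2309 to 3732 and 1431 on the DKK1 list.

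Of 23 tested targets of CDX2 and HNF4A outside the enterocyte list, 21 were higher and 0 lower in the enterocyte-rich cells, with a median log2 change of 1.83 against -0.01 over all genes. These targets are themselves genes of enterocytes, and the cells were sorted on enterocyte genes, so the direction is in part fixed by the split. LCT was higher by 3.36 (SE 0.36, adjusted p = 5.33e-06), the brush border cadherin CDHR5 by 2.96 (SE 0.15, adjusted p = 1.04e-08) and apolipoprotein B (APOB) by 2.87 (SE 0.16, adjusted p = 1.44e-08). Of 19 other gut transcription factors, 8 were higher and 3 lower. They included MAF at 2.71, the bile acid receptor NR1H4 at 2.59 and CREB3L3 at 2.18, and on the lower side FOXA2 at -1.09, ONECUT2 at -1.05 and FOXA1 at -0.49. Of 15 crypt genes, 0 were higher and 8 lower, with TNFRSF19 at -1.83, LGR5 at -1.68 and EPHB2 at -1.35. Of 4 tested genes of the foregut and stomach, 2 were higher, TFF2 at 1.76 and TFF1 at 1.55, and 0 lower. Of 3 genes of pluripotent cells, 0 were higher and 2 lower, SALL4 at -1.38 and LIN28B at -0.78. HNF4A-AS1, antisense to HNF4A, was higher by 3.95 (SE 0.37, adjusted p = 1.69e-06).

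The proliferation list holds 20 genes of S phase and mitosis, such as MKI67 and MCM2. Cells rich in them were deeper, with medians of 7596, 5906 and 4725 UMIs against 4696, 3628 and 3239 UMIs, and the part of depth in the results was not tested beyond the thinned cells. Of 6 factors, 2 were lower and 1 higher, where 37.8% of all genes passed (19.4% higher and 18.4% lower). CDX2 was at 106, 115 and 115 CPM in the low and 88.4, 86.0 and 85.1 CPM in the high cells, and HNF4A at 153, 124 and 167 against 120.4, 88.7 and 120.6 CPM. The high cells were lower in every library, by -0.50 on the log2 scale for CDX2 (SE 0.10, adjusted p = 0.00127) and by -0.56 for HNF4A (SE 0.14, adjusted p = 0.00672). SOX2 had 3.57, 5.17 and 4.76 CPM in the low and 6.25, 6.70 and 13.8 CPM in the high cells, a log2 change of 0.82 (SE 0.27, adjusted p = 0.0313). It rested on LPS, without which it was 0.47 (adjusted p = 0.206), and on control 2, without which the adjusted p was 0.0591.

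HNF4G, GATA6 and SOX9 missed the threshold on the proliferation list and passed it with the library as a block. Their log2 changes were -0.68 for HNF4G (SE 0.30, adjusted p = 0.0874, and 0.00819 with the block), 0.25 for GATA6 (SE 0.10, adjusted p = 0.0573, and 0.00346 with the block) and 0.32 for SOX9 (SE 0.13, adjusted p = 0.0603, and 8.71e-05 with the block). Without a filter on low counts, HNF4G (0.0355) and SOX9 (0.0382) also passed, and with plain totals GATA6 (0.0113) and SOX9 (0.0112) did. SOX9 was at 66.7, 52.7 and 71.5 CPM in the low and 89.4, 76.4 and 95.4 CPM in the high cells, higher in every library. Of 28 targets of CDX2 and HNF4A, 0 were higher and 25 lower, APOA4 by -3.51 and FABP2 by -3.22. The targets share genes with the enterocyte list, APOA4 and FABP2 among them, and 12 of its 13 genes were lower here. The target count is therefore not separate from the loss of enterocyte genes. Of 15 crypt genes, 6 were higher and 0 lower, with LGR5 at 1.53, EPHB2 at 0.79 and AXIN2 at 0.75.

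The fetal-liver list holds 8 genes of plasma proteins, such as AFP, ALB and FGB. Of 6 factors, 2 were higher and 1 lower in the cells rich in them, where 16.9% of all genes passed (9.52% higher and 7.42% lower). CDX2 went from 84.4, 91.0 and 84.3 CPM to 112, 121 and 121 CPM and HNF4A from 111, 89.3 and 114 to 171, 142 and 197 CPM. Both rose in each library, with log2 changes of 0.47 for CDX2 (SE 0.10, adjusted p = 0.00558) and 0.72 for HNF4A (SE 0.13, adjusted p = 0.00187). The CDX2 call was lost without control 2 (adjusted p = 0.0682) and in thinned cells (0.103). SOX2 went from 8.16, 9.04 and 12.2 CPM to 3.03, 2.24 and 4.95 CPM, a log2 change of -1.51 (SE 0.26, adjusted p = 0.00109). HNF4G at 0.80 (adjusted p = 0.0735) and GATA6 at -0.26 (adjusted p = 0.109) passed with the library as a block (0.00867 and 0.0146), HNF4G also without a filter on low counts (0.0207). The block is a setting that raised the number of genes called from 2186 to 4381. SOX9 was at 81.3, 63.9 and 83.1 CPM in the low and 77.0, 70.6 and 83.9 CPM in the high cells, which differed by less than the spread between libraries (log2 change 0.04, SE 0.12, adjusted p = 0.852). The enterocyte genes moved with this list, 12 of 13 being higher, so the factors' changes along both lists are not separate. Of 28 targets of CDX2 and HNF4A, 23 were higher and 0 lower. They share genes with the enterocyte list, so this count is not separate either.

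The DKK1 list holds 7 genes, DKK1, a secreted inhibitor of Wnt signalling, ANKRD1, a target of YAP, and GAL, ALDH1L2, UCHL1, ACTL8 and BCAT1. Every low cell had 0% of its UMIs on this list, and the high cells began at 0.0128%, 0.0240% and 0.0223%. A cell called rich in these genes can therefore hold very few of their UMIs. The part of depth in this split was not tested beyond the thinned cells. Of 6 factors, 2 were higher and 3 lower in the cells rich in them, where 35.3% of all genes passed (17.5% higher and 17.8% lower). CDX2 was at 115, 120.3 and 111 CPM in the low and 60.2, 65.4 and 65.0 CPM in the high cells, and HNF4A at 164, 138 and 171 against 91.9, 66.5 and 98.2 CPM. No library overlapped between high and low cells for CDX2, whose log2 change was -1.04 (SE 0.10, adjusted p = 3.56e-06), and HNF4A changed by -1.06 (SE 0.14, adjusted p = 4.70e-05). HNF4G changed by -1.07 (SE 0.31, adjusted p = 0.0152), a call lost without control 1 (0.0566), without control 2 (0.0711) and in thinned cells (0.351).

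SOX2 went up along the DKK1 list, from 1.80, 3.66 and 5.67 CPM to 14.5, 13.0 and 15.5 CPM, a log2 change of 1.85 (SE 0.26, adjusted p = 0.000106). The low cells of LPS had the highest of the low values, and the high cells were alike in the 3 libraries. GATA6 went from 43.1, 46.8 and 50.9 CPM to 70.7, 70.7 and 67.5 CPM, a log2 change of 0.40 (SE 0.10, adjusted p = 0.00578) that missed the threshold without control 2 (0.0957) and in thinned cells (0.0880). SOX9 changed by -0.06 (SE 0.12, adjusted p = 0.711), and by 0.12 with plain totals. Of 28 targets of CDX2 and HNF4A, 0 were higher and 24 lower, while 9 of 15 crypt genes were higher and 0 lower, with LGR5 at 1.33, CD44 at 1.19 and ZNRF3 at 1.05. The targets share genes with the enterocyte list, and 12 of its 13 genes were lower, so the target count is not a separate result. All 3 tested genes of pluripotent cells were higher, SALL4 by 0.81, LIN28B by 0.66 and PROM1, which is also on the crypt list, by 0.66. Of 3 tested genes of the foregut and stomach, PGC was higher by 1.23, while TFF2 (-1.88) and TFF1 (-1.82) were lower, opposite to SOX2. Of 10 relatives, GATA2 (2.33) and GATA3 (0.98) were higher and NR2F1 (-1.32), SOX13 (-0.70) and NR2F6 (-0.44) lower. The cells rich in this list also held more proliferation genes, 18 of 20 being higher, and had medians of 6392, 4751 and 3824 UMIs against 4957, 3666 and 3264 UMIs.

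Pairs of factors were followed in single Caco-2-line cells, each thinned to 2000 UMIs, with 168 shallower cells left out in control 2 and 343 in LPS. At that depth, 49.5%, 52.4% and 47.8% of the cells held no UMI of any of the 8 factors, and 2.38%, 1.64% and 1.91% held UMIs of 3 or more of them. In HT29-line cells the shares without any were 75.7%, 77.1% and 71.6%. HNF4A was found in 24.8%, 25.2% and 29.4% of the cells with a CDX2 UMI and in 23.1%, 17.5% and 23.3% of those without, a mean difference of 5.16 percentage points (SD 3.1, n = 3) that was positive in 3 of 3 libraries. With a SOX2 UMI the share with HNF4A was lower, 1 of 38 cells (2.63%) in control 1, 4 of 51 (7.84%) in control 2 and 6 of 55 (10.9%) in LPS, against 23.6%, 19.1% and 24.6% of the other cells. CDX2 was found in 18.4%, 5.88% and 12.7% of cells with a SOX2 UMI and in 17.2%, 18.4% and 17.9% of those without. For CDX2 the share was thus lower in control 2 and LPS but not in control 1. GATA6 was found in 14.6%, 10.8% and 12.2% of cells with a SOX9 UMI and in 8.90%, 9.59% and 9.87% of those without. SOX9 in cells with a SOX2 UMI (23.7%, 11.8% and 14.5%) and without (13.3%, 11.5% and 13.4%) showed no clear difference. These shares are descriptions, since cells of 1 library are not replicates of a condition.

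**Figure D5:**
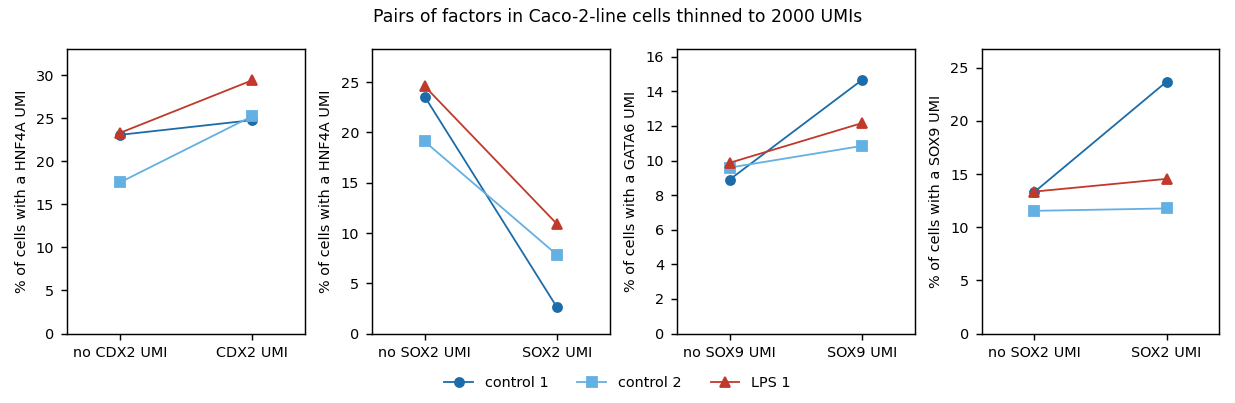
Share of Caco-2-line cells, each thinned to 2000 UMIs, with a UMI of 1 factor among cells with and without a UMI of another (linear axes from 0). Each line joins the values of 1 library. HNF4A is found less often in cells with a SOX2 UMI (2.63% to 10.9%) than in those without (19.1% to 24.6%) in all 3 libraries.

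The last comparison set the LPS library against the controls within each line. The test assumes that the lone LPS library varies as the controls do and has 1 residual degree of freedom. In Caco-2-line cells, 0 of the 7 factors tested passed with edgeR (1 had an unadjusted p below 0.05) and 0 passed with DESeq2, where 0.0195% of all 15379 genes (3 genes) passed. That factor was HNF4G, at 4.93 and 4.68 CPM in the controls and 2.93 CPM in LPS, a log2 change of -0.80 (SE 0.29, adjusted p = 0.794). SOX2 had the next largest change, 0.40 (SE 0.22, adjusted p = 0.796), from 5.66 and 6.65 CPM to 8.56 CPM. CDX2 changed by -0.06 (SE 0.13, adjusted p = 0.956) and HNF4A by 0.13 (SE 0.16, adjusted p = 0.902). GATA6 at -0.06 (SE 0.14), SOX9 at 0.07 (SE 0.15) and GATA4 at 0.04 (SE 0.64) were likewise near 0, the last with a wide error.

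In HT29-line cells, 0 of the 6 factors tested passed with edgeR (1 had an unadjusted p below 0.05) and 0 passed with DESeq2, where 0.18% of all 12205 genes passed (0.156% higher and 0.0246% lower). CDX2 was at 12.5 and 10.2 CPM in the controls and 18.8 CPM in LPS, a log2 change of 0.67 (SE 0.30, adjusted p = 1). The cells of lower line score held 49 and 41 CDX2 UMIs in the controls and 65 in LPS, while the upper group had 5, 5 and 3. The lower group thus held most CDX2 UMIs in every library, which is in part fixed by the split. Where the change with LPS arose was not tested. CDX1 changed by -0.60 (SE 0.41, adjusted p = 1), HNF4A by 0.20, GATA6 by 0.22, HNF4G by 0.14 and SOX9 by 0.10. The difference between the effects in the lines was tested as an interaction term. For that term edgeR called 0 of 7 factors (1 had an unadjusted p below 0.05) and DESeq2 called 0. Over all 15058 genes edgeR called 0%, or 0 genes, with 328 below an unadjusted p of 0.05, and DESeq2 called 0. For CDX2 it was 0.72 (SE 0.31, adjusted p = 1), and in the upper group of HT29-line cells it was -0.41. In simulated data of this size for Caco-2-line cells, the test recovered 80% of 2-fold and 96% of 4-fold changes, each among 100 changed genes of 15236 tested. The changed genes were drawn from well-counted ones, a level that GATA4 did not reach, and all genes shared a common dispersion. The simulated LPS library varied as the controls do. A p that misses the threshold does not show that LPS left the factors as they were.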

How the data were processed

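Single-cell UMI counts per gene and barcode were deposited by the authors, who aligned the reads to GRCh38 with Cell Ranger (3.1.0 per the file headers). Cells with at least 2250 UMIs and 770 genes (control 1) or 1500 UMIs and 700 genes (control 2, LPS) and at most 20% mitochondrial UMIs were kept, and the 6% with the highest Scrublet scores were removed, since its own threshold marked 1 doublet in all libraries. Lines were called by a mixture on 134 HT29 and 771 Caco-2 genes at a posterior of 0.95. Clustering used SCTransform (sctransform 0.4.2) and anchor integration in Seurat 5.3.0, 3000 features, 50 components, 15 neighbours and Leiden resolution 0.5 (scanpy 1.11.5). Summed counts were tested with edgeR 4.0.16 (R 4.3.3) using filterByExpr, TMM, the quasi-likelihood test and Benjamini-Hochberg adjustment over all genes, with 0.05 as threshold, and DESeq2 1.42.0 was an alternative. Intervals and floors (3 counts) cover counting error only. Both sums of a comparison came from the same libraries, which pairs them, and the deviations of the pairs had r of 0.078 to 0.317 between lines and 0.199 to 0.498 along the lists. The factors were always named, with up to 3 called genes per list and direction and the 5 genes most like each factor, of which 1 is not reported here. The factors and lists were chosen with earlier results of these data known. On simulated counts the test recovered 90% of 2-fold changes between lines (13884 genes tested) and 91% along the enterocyte list (12894 genes tested). Each rate is over 100 changed, well-counted genes, with a common dispersion for all genes, so it does not cover scarce factors. Far fewer genes were changed than were called in the data, and the sums of a library were drawn independently. The rates may therefore not hold for these comparisons.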

Additional observations from a re-analysis of the deposited data

How the results depend on the processing

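Of 839 values for the factors under alternatives, 758 kept direction and side of the threshold or moved by less than the replicate SD, 27 moved, 22 reversed, 16 gained and 16 lost a call. The cause of these changes was not tested. Reversals were of values near 0 or of few UMIs. SOX9 between the lines was -0.0159 without a filter, -0.0071 at a posterior of 0.5 and -0.0819 in the upper group of HT29-line cells, and 0.1173 along the DKK1 list with plain UMI totals (both settings, like the split by line score, were chosen after seeing the data). With LPS in Caco-2-line cells, GATA4 was -0.0765 with the minimums of control 1 in every library, -0.0273 at posterior 0.5 and -0.0111 with the full CCLE list, and CDX2 was 0.0266 and GATA6 0.0235 with plain totals. With LPS in HT29-line cells, HNF4A was -0.0234 at posterior 0.5, and in the upper group HNF4G was -0.1121, GATA6 -0.0137 and SOX9 -0.0985. The SOX2 interaction was -0.0057 with DESeq2 size factors, -0.0035 with DESeq2, -0.1429 with no doublets removed, -0.5927 at posterior 0.5, -0.0078 with plain totals and -0.3976 in the upper group, the HNF4A interaction was -0.156 at posterior 0.5, and the upper group gave -0.4097 for CDX2 and -0.1758 for SOX9.

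Genes called with LPS in Caco-2-line cells went from 3 to 10 (DESeq2 size factors), 44 (no filter), 0 (minimums of control 1 in every library), 56 (posterior 0.5), 18 (full CCLE list) and 40 (plain totals), and in HT29-line cells from 22 to 4 (DESeq2) and 37 (upper group). The interaction went from 0 to 6 without a filter. Thinning to 2000 UMIs gave 3098 genes in place of 4908 along the proliferation list, 1019 in place of 2186 along the fetal-liver list and 1233 in place of 4584 along the DKK1 list. Leaving out 1 library gave 2782 to 4386 genes for the enterocyte, 2709 to 4205 for the proliferation, 884 to 1351 for the fetal-liver and 2262 to 3813 for the DKK1 list, each lowest without control 2. The replicate block gave 4381 genes for the fetal-liver list, and beyond the calls printed beside the factors it changed no other call. No paired analysis was possible because the LPS and control groups share only 1 replicate number, and without a control the LPS effect and the interaction have no residual degrees of freedom, so they are values with no test.

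Of the levels by cluster 21 moved, among them those of TALC, CDX2 to 87.0, SOX2 to 8.89 and SOX9 to 86.4 CPM with log normalization without integration, and GATA6 to 71.2, SOX2 to 11.9 and SOX9 to 83.4 CPM at resolution 0.8, where GATA6 in U-HT29 was 15.95 CPM. With log normalization the name ISCLC fell on 2871 cells with DKK1 and PLA2G2A among their leading genes, in place of 553 cells led by ALB and AFP. Those 2871 cells had 14.9 CPM of SOX2, 71.6 of GATA6, 88.4 of HNF4A and 68.6 of CDX2. The 553 cells of the clustering reported had 2.20, 40.2, 122 and 85.9 CPM. At resolution 0.8, SOX2 in ISCLC was 5.21 CPM and SOX9 in GCLC went from 63.7 to 85.7 CPM, where GCLC held 1105 cells in place of 222. A name did not cover the same cells in each clustering, so these shifts are not those of fixed groups. The others that moved were CDX1 in ISCLC and U-HT29, CDX2 in LYZ+ ECLC, HNF4G and GATA4 in ECLC, and GATA4 and SOX2 in GCLC. At 1500 UMIs per cell, the mean difference was -9.04 percentage points for HNF4A with against without SOX2 (-15.3 at 2000 UMIs) and -0.696 for SOX2 with against without HNF4A (-1.10 at 2000 UMIs). CDX1 in Caco-2-line cells and GATA4 and SOX2 in HT29-line cells rest on 5 or fewer UMIs per library, so their values carry wide counting intervals.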

Other observations

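The 345 cells without a clear line entered no comparison. CDX2 was at 74.7, 82.5 and 84.3 CPM in them in control 1, control 2 and LPS, and HNF4A at 149, 122 and 65.9 CPM. CDX1 was at 1.15, 1.83 and 2.63 CPM, from 1, 2 and 1 UMIs, below the floor of 3 counts in each library. These values lay between the levels of the lines but rest on too few UMIs to place the cells. LYZ+ ECLC, in which 55.5% of the cells had no clear line, had 3 CDX1 UMIs in 301 cells.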
